A study of Mus musculus with 12 samples.

Results

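CEBPA_V314VW was compared with empty vector over all 22142 gene probe sets whose identifiers start with TC, of 28846 probe sets on the array. The comparison used 6 of the 12 arrays in the series, the 3 titled for CEBPA_V314VW and the 3 titled for empty vector. The arrays were taken by title, and the comparison was chosen with earlier results of these data known. The cells were mouse HoxB8-ER cells, 1 immortalised progenitor line that grows as long as estrogen keeps a HoxB8 fusion protein active and that matures towards neutrophils when estrogen is taken away. Empty-vector cells carried an empty MSCV-IRES-GFP and an empty MSCV-IRES-mCherry retrovirus. CEBPA_V314VW cells carried the human mutant cDNA in MSCV-IRES-GFP together with an empty MSCV-IRES-mCherry, on top of the cells' own Cebpa gene. The other 6 arrays came from cells with human CSF3R_T618I and from cells with both mutants. They gave a second measurement of the CEBPA_V314VW effect, and also entered the estimate of spread behind every p-value. All cells had been grown in medium with stem cell factor and estrogen, selected by flow cytometry on GFP and mCherry, left for 1 week and then washed and kept without estrogen for 24 hours. The labels do not say whether the 3 samples of a group came from separate cultures, so p-values measure only the spread between these samples, which may be technical.

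C/EBPα, the protein made from CEBPA, is a leucine zipper transcription factor that binds DNA as a dimer and is needed for progenitors to become granulocytes. Its relative C/EBPε acts later in that pathway and is known to switch on the genes of the secondary granules. V314VW changes the C-terminal part of the protein, which holds the DNA-binding and zipper regions and is altered in some acute myeloid leukaemias. Neutrophil precursors first make primary granules, with myeloperoxidase and elastase, then secondary and tertiary granules, with lactoferrin and metalloproteinases, and late in maturation the cytosolic S100 proteins and stefins. The comparison asked which genes of this programme, and which others, differ when the mutant protein is present and maturation has just been started.

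Markers of granulocyte-macrophage progenitors, the stage the line is derived from, were high. With empty vector, 10 of 11 such genes exceeded 10.79 (log2), the 95th percentile over gene probe sets, and Irf8, a factor of the monocyte branch, was the exception at 7.28. Mpo, the myeloperoxidase gene, averaged 13.87 on the empty-vector arrays and 13.88 on the mutant's (log2, n = 3 arrays each). Array medians lay between 6.59 and 6.76, arrays of one group correlated at r = 0.994 to 0.995 with empty vector and 0.991 to 0.993 with CEBPA_V314VW, and arrays of different groups at 0.989 to 0.991. Background control probes averaged 4.98 to 5.27 on the 12 arrays, so a group mean at or below 5.27 is called background level here, and a fold from such a level is of unknown true size. The number of arrays limits the precision.

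With CEBPA_V314VW, 67 probe sets were higher and 67 lower than with empty vector. They passed an adjusted p of 0.05 by limma and differed at least 2-fold, and are termed called from here on. These 134 were 0.605% of the 22142 probe sets, 0.303% in each direction. Of them 122 had a gene symbol, 61 in each direction. The changes of the higher ones ran from 1.00 to 5.83 with a median of 1.42 on the log2 scale, and those of the lower ones from -3.63 to -1.0 with a median of -1.31, while the median over all probe sets was 0. At least 4-fold changes were seen for 15 higher and 16 lower probe sets. In all 134 the 3 arrays of one group lay apart from the 3 of the other, which was also true of 16.8% of all probe sets. With the adjusted p alone, 224 probe sets (1.01%) rose and 211 (0.953%) fell, and these words are used below for that test.

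The higher and lower probe sets started from different levels. Probe sets called higher had a median level of 6.60 with empty vector, close to the 6.65 of all probe sets, and 12 of the 67 stood at background there. Probe sets called lower had a median level of 8.76 with empty vector, and 8 of the 67 reached background with CEBPA_V314VW. In a bulk sample, fewer cells of a type and less RNA per cell cannot be told apart. The plot of level against change shows both groups of probe sets.

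**Figure D1:**
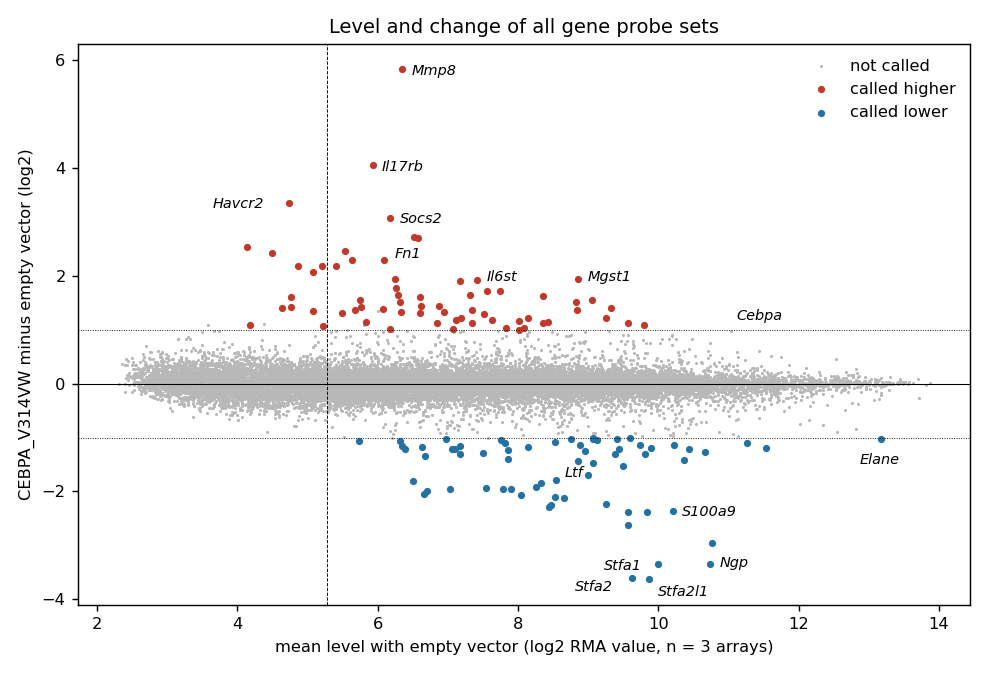
Log2 change (CEBPA_V314VW minus empty vector, vertical) against the mean level with empty vector (log2 RMA value, n = 3 arrays, horizontal) for all 22142 gene probe sets. Red points are called higher, blue points called lower and grey points not called. Dotted lines mark 2-fold, and the dashed line the highest background control mean, 5.27. Mmp8 stands alone at 5.83, and most points called lower lie at higher starting levels (median 8.76) than those called higher (median 6.60).

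Mmp8, the neutrophil collagenase gene on chromosome 9, had the largest change of all. Its log2 levels were 6.22, 6.37 and 6.45 on the empty-vector arrays and 12.25, 12.19 and 12.10 on the CEBPA_V314VW arrays. It stood close to the array median with empty vector and above the 95th percentile with the mutant, with no overlap between groups. The change was 5.83 ± 0.12 (SE), or 56.9-fold, with adjusted p = 4.48e-11.

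Genes of receptors and their signalling came next. Il17rb on chromosome 14, which encodes a receptor chain for interleukin-25, read 5.79, 5.92 and 6.06 with empty vector and 9.89, 10.15 and 9.90 with CEBPA_V314VW, 16.6-fold higher (4.05 ± 0.20, adjusted p = 2.08e-07). Socs2 on chromosome 10, a feedback inhibitor of cytokine and growth hormone receptors, read 6.05, 6.50 and 6.00 and then 9.20, 9.31 and 9.28, 8.46-fold higher (3.08 ± 0.15, adjusted p = 2.08e-07). The lowest array with the mutant lay more than 2 log2 units above the highest without it in both genes. Il6st, the signalling chain shared by the interleukin-6 family, started higher, at 7.36, 7.43 and 7.46, and stood at 9.32, 9.45 and 9.27, 3.82-fold higher (1.93 ± 0.09, adjusted p = 2.08e-07). Havcr2, which encodes the inhibitory receptor TIM-3, was at background on the empty-vector arrays, at 4.44, 4.50 and 5.27, and at 8.11, 8.02 and 8.14 with CEBPA_V314VW. Its change of 3.36 ± 0.21 (adjusted p = 1.69e-06) is therefore a rise out of background. Il31ra, the interleukin-31 receptor gene next to Il6st, rose out of background too, by 2.19 ± 0.22 (adjusted p = 8.13e-05).

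The other genes among the 20 largest rises had varied roles. Fn1, the fibronectin gene, read 6.02, 6.09 and 6.16 with empty vector and 8.56, 8.52 and 8.10 with CEBPA_V314VW, 4.94-fold higher (2.30 ± 0.15, adjusted p = 2.26e-06). Itsn1, an endocytic scaffold gene, read 6.40, 6.54 and 6.80 and then 9.37, 9.35 and 9.10, 6.48-fold higher (2.70 ± 0.18, adjusted p = 2.23e-06). Neither gene's groups overlapped. Among single genes, Mgst1, a membrane glutathione transferase, was 3.83-fold higher, Cmah, which makes a sialic acid form, 3.83-fold, and Fabp5, a fatty acid binding protein, 3.29-fold. Glyat, a glycine acyltransferase, rose by 2.46, and Akr1c18, a steroid-reducing enzyme, rose out of background by 2.19. Ccl6, a chemokine of myeloid cells, was 3.72-fold higher. Rgs7bp, which anchors regulators of G protein signalling, rose by 2.29, Vit, a matrix protein gene, by 2.18, and Cacna2d2, an accessory chain of calcium channels, by 1.78. P2ry10, a lipid receptor gene, rose out of background by 2.08. Akr1c18 and P2ry10 have close relatives on the genome (P2ry10b was also higher, by 1.02), and reads of near-identical copies cannot be separated in an array's probe set summary.

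The largest falls were in stefin genes. The stefins, or A-type cystatins, inhibit cysteine proteases and in the mouse are a group of near-identical genes on chromosome 16, so that a probe set of one may also read its copies. Stfa1 read 9.98, 9.93 and 10.07 with empty vector and 6.48, 6.88 and 6.57 with CEBPA_V314VW, a fall of 10.2-fold (-3.35 ± 0.13, adjusted p = 1.8e-08). Stfa2l1 read 9.55, 9.86 and 10.17 and then 6.59, 5.89 and 6.20, a fall of 12.4-fold (-3.63 ± 0.23, adjusted p = 1.85e-06). Every array with the mutant lay far below every array without it. Of the same group, Stfa2 (-3.61), Cstdc5 (-2.96), Cstdc6 (-2.62), Cstdc4 (-2.38), Csta2 (-2.13) and Csta3 (-1.99) fell as well, and Csta3 reached background.

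Granule and calprotectin genes followed. Ngp, the neutrophilic granule protein gene on chromosome 9, read 10.58, 10.84 and 10.80 with empty vector and 7.06, 8.12 and 7.04 with CEBPA_V314VW, 10.1-fold lower (-3.34 ± 0.24, adjusted p = 5.16e-06). S100a8 and S100a9 on chromosome 3 encode the chains of calprotectin. S100a8 read 9.30, 9.72 and 9.67 and then 6.99, 7.56 and 6.96 (-2.39 ± 0.18, adjusted p = 6.89e-06), and S100a9 read 9.79, 10.37 and 10.48 and then 7.61, 8.70 and 7.25 (-2.36 ± 0.30, adjusted p = 0.000658). In all 3 genes CEBPA_V314VW replicate B was the highest of its group, and still below each empty-vector array. Cybb, the gp91 chain of the phagocyte oxidase, read 7.98, 8.07 and 8.06 and then 5.52, 6.32 and 6.11, 4.16-fold lower (-2.06 ± 0.18, adjusted p = 2.23e-05). Fcnb, the ficolin-B gene, fell by 2.28, Retnlg, a resistin-like gene, by 2.04 to background, and Lrg1, a glycoprotein of neutrophil granules, by 1.85. Of receptor genes, Lilrb4a, an inhibitory receptor with near-identical neighbours, read 9.36, 9.28 and 9.15 and then 7.01, 6.86 and 7.21, a change of -2.24 ± 0.21 (adjusted p = 5.23e-05). Its neighbour Lilr4b fell by 1.95 and Ltb4r1, the leukotriene B4 receptor, by 1.92. Cd80, a ligand of T cell costimulation, fell by 1.96 to background, and Olfml2b, an extracellular matrix protein gene, by 2.25.

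**Figure D2:**
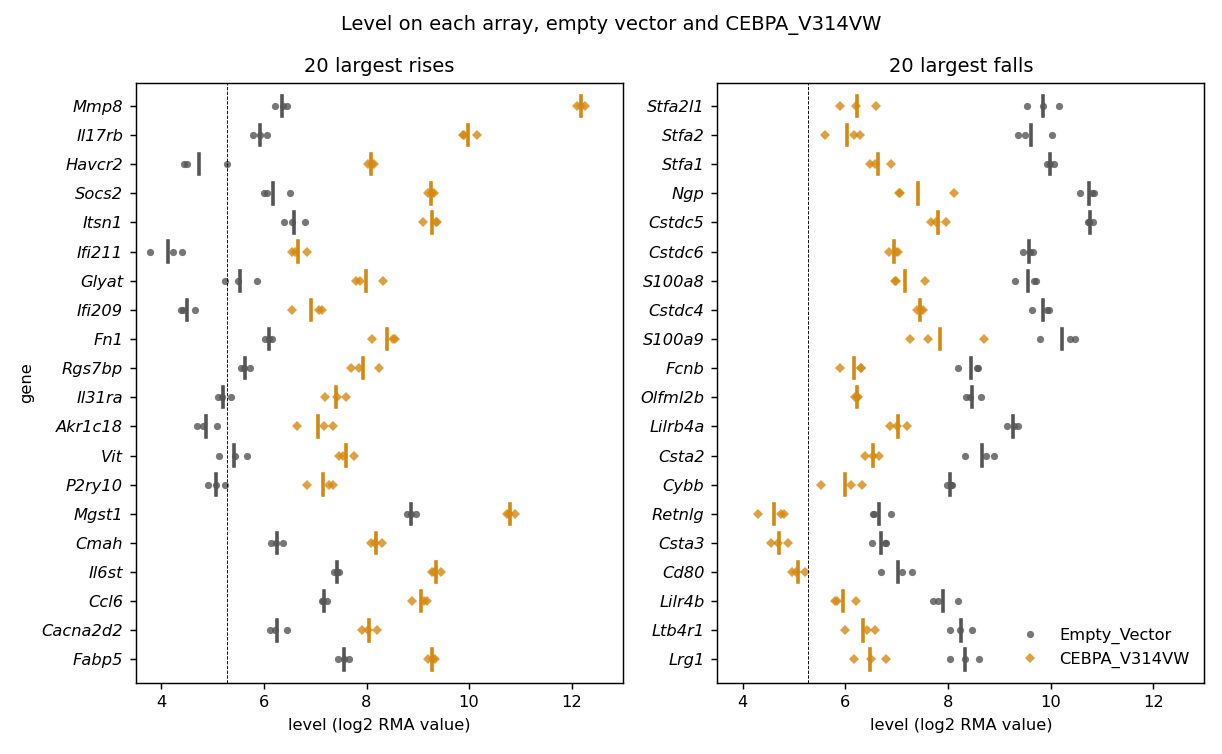
Level of each array (log2 RMA value, horizontal) for the 20 largest named rises (left) and falls (right). Grey circles are the 3 empty-vector arrays, orange diamonds the 3 CEBPA_V314VW arrays, vertical bars their means, and the dashed line the highest background control mean, 5.27. No gene's groups overlap; Mmp8 goes from 6.35 to 12.18 on average, and Stfa2l1 from 9.86 to 6.23.

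Promoters were read because C/EBP factors bind a known DNA motif. Of 19485 genes on the array, 15676 had a promoter in RefSeq (GRCm38.p6), taken as 250 bases before to 50 after the start, 19123 promoters in all. The C/EBP motif searched was TTGCNNAA on either strand. It was present for 13 of 50 called-higher genes (26%) and 14 of 50 called-lower genes (28%) with a promoter, against 11.6% of all genes. Some genes have several annotated starts. Per promoter, the shares were 18.6% of 86, 24.1% of 58 and 10.1% of 19123. The shares for STAT (TTCNNNGAA) were 14% of genes called higher, 10% of those called lower and 9.03% of all. For PU.1 (GAGGAAGT) they were 14%, 14% and 3.53%, and for IRF (GAAA, any 2 bases, GAAA) 10%, 6% and 3.94%. No C/EBP match shared bases with a match of another motif in the 30 called promoters that held one. The same was true of all 1927 promoters with a match. The letters of the C/EBP and STAT motifs cannot overlap, and those of the other motifs seldom can. Nothing is therefore read from this count. The called promoters also differed in base composition, with a median GC of 52.7% (higher) and 50.8% (lower) against 57% for all, and its part in these shares was not tested. Close copies among the matched genes, such as Stfa1 with Cstdc5 and P2ry10 with P2ry10b, were counted separately. Their part in the shares was not tested either. A match is a description of letters and not a binding site. The 3 genes with the largest change in each direction that hold a match are shown, 5′ to 3′ on the gene's strand, with the match in capitals.
Mmp8 (chr9:7558179-7558478, plus strand): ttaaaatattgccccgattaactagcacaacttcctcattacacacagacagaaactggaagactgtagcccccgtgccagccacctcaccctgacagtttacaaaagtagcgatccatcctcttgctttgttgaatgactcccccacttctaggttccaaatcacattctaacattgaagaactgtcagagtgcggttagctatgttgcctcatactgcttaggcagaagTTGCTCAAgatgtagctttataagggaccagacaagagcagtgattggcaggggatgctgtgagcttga
Ifi209 (chr1:173630609-173630908, plus strand): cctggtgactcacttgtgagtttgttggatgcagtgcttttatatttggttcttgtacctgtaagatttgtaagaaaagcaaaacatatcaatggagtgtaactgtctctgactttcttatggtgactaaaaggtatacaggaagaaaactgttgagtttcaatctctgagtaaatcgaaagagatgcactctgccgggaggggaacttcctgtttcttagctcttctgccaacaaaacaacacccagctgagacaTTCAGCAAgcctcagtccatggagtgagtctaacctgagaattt
P2ry10 (chrX:107088242-107088541, plus strand): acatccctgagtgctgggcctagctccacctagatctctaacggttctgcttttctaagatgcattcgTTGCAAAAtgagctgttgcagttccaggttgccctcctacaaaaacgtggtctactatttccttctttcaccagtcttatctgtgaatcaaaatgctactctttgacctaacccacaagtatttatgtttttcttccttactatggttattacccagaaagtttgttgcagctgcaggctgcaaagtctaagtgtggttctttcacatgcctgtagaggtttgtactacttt
Stfa1 (chr16:36276898-36277197, plus strand): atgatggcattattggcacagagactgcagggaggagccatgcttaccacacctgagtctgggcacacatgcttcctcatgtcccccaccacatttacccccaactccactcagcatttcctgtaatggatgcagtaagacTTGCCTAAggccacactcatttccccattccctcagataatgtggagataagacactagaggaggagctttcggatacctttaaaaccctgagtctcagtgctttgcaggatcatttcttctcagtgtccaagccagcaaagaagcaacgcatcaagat
Ngp (chr9:110419558-110419857, plus strand): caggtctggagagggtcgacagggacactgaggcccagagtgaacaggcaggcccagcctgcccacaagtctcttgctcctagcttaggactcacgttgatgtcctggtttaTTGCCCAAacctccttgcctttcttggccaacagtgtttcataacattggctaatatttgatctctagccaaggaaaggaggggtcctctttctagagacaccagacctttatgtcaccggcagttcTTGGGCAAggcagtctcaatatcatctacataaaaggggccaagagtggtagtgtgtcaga
Cstdc5 (chr16:36367521-36367820, minus strand): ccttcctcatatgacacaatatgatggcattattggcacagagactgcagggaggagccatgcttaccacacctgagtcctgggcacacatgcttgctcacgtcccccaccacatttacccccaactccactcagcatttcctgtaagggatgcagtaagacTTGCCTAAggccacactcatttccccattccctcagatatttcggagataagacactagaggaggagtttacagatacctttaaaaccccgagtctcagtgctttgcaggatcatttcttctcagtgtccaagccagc
Counted from the start, the match begins at -19 in Mmp8, 7 in Ifi209 and -182 in P2ry10. It begins at -109 in Stfa1 and -88 in Cstdc5, and Ngp has matches at -138 and -11. Both directions thus include genes with a match, and Mmp8 and Ngp, with the same motif, changed by 5.83 and -3.34.

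The C/EBP genes themselves changed little by comparison. Cebpa rose from 10.99, 11.04 and 11.07 to 12.00, 12.14 and 11.90, a change of 0.98 ± 0.12 (1.97-fold, adjusted p = 0.000383), just short of the 2-fold line. Whether this probe set also reads the human cDNA was not tested. Cebpe fell from 9.64, 9.57 and 9.60 to 8.69, 8.62 and 8.49 (-1.0 ± 0.11, adjusted p = 0.000261). Cebpd, a family member that responds to cytokines, fell by 0.82 (adjusted p = 0.00158). The other 6 of the 9 genes in the list of C/EBP factors and Tribbles, pseudokinases that promote loss of C/EBPα, did not pass, among them Cebpb at 8.37 and 8.41. Of 16 granulocyte and monocyte transcription factor genes, 2 fell and 14 did not pass. Gfi1, a repressor needed for neutrophil development, fell by 0.74 (adjusted p = 0.000981) and Id2, an inhibitor of helix-loop-helix factors, changed by -1.30 (adjusted p = 0.000446). Spi1, which encodes PU.1, stood at 13.29 and 13.17 (adjusted p = 0.853).

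Of the genes the study discusses on these arrays, the one with a large change here was Stfa1. Nos2 was near background in both groups (5.06 and 4.85), Bcl6, a transcriptional repressor, stood at 7.78 and 7.33 (adjusted p = 0.218) and Pla2g7, a phospholipase, at 5.60 and 5.66. Csf3r, the mouse receptor for granulocyte colony-stimulating factor, read 11.31, 11.36 and 11.49 with empty vector and 10.93, 10.94 and 10.88 with CEBPA_V314VW. The groups did not overlap and the change was -0.47 ± 0.10 (adjusted p = 0.0204), but leaving out any 1 of the 6 arrays of these groups ended this call (adjusted p = 0.052 to 0.1). Hoxb8 stood at 11.38 and 10.98 (adjusted p = 0.233).

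Granule genes were read by the stage at which they are made. All gene lists used here were chosen with earlier results of these data known. Nothing is therefore read from their counts against the share of all probe sets. Of 11 primary granule genes 3 fell and 8 did not pass, with a median change of -0.09. Elane, neutrophil elastase, read 13.19, 13.21 and 13.13 and then 12.26, 12.32 and 11.89 (-1.02 ± 0.11, adjusted p = 0.000265), and Cst7, the cystatin F gene, fell by 0.66 (adjusted p = 0.00215). The third, Ms4a3, had a change of -0.37 (adjusted p = 0.0464) that did not pass when any 1 of the 6 arrays was left out. Mpo, Prtn3 and Ctsg, the other abundant enzymes of these granules, did not pass, with changes of 0.01, -0.21 and -0.09. Of 18 secondary and tertiary granule genes, 9 fell, 3 rose and 6 did not pass, and the list median was -0.63. The count of falls was 7 to 10 when 1 array was left out. Of all probe sets 0.953% fell and 1.01% rose, and for the reason given these counts are not weighed against those shares. Ltf, the lactoferrin gene, read 8.25, 8.45 and 8.92 and then 6.62, 7.24 and 6.40, 3.45-fold lower (adjusted p = 0.000381). Itgb2l, an integrin chain, fell by 1.28 and Ceacam1, an adhesion molecule, by 0.89. Mmp8 went the other way, as did Chil3, a chitinase-like protein gene, with 7.15, 7.54 and 7.32 and then 8.85, 8.84 and 8.40 (1.36 ± 0.23, adjusted p = 0.00544), and the metalloproteinase gene Adam8, by 0.97. Mmp9, the gelatinase gene, stood at 6.25 and 5.39 and did not pass (adjusted p = 0.0723).

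Of 24 late neutrophil genes measured, 13 fell, 2 rose and 9 did not pass, with a median of -0.73. The count of falls was 10 to 12 when 1 array was left out. The list holds Stfa1, Stfa2, Stfa2l1, S100a8, S100a9 and Retnlg, described above, and also Cxcr2, the receptor that brings neutrophils to chemokines, which fell from 7.70, 7.92 and 7.81 to 6.60, 6.56 and 6.97 (-1.10 ± 0.13, adjusted p = 0.000409). The 2 that rose were the C-type lectin genes Clec4d (0.78, adjusted p = 0.00876) and Clec4e (0.89, adjusted p = 0.00183), named after their values were seen, and 1 of the 2 passed without empty vector replicate B. Of 5 measured NADPH oxidase genes, Cybb fell and the other 4 did not pass, though all 5 changes were negative (median -0.27). Of 11 S100 genes 4 fell and 7 did not pass, with S100a6 at -1.18 (adjusted p = 0.00418) after S100a8 and S100a9. The fourth, S100a11, had a change of -0.48 (adjusted p = 0.0293) that did not pass without any 1 of the 6 arrays.

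**Figure D3:**
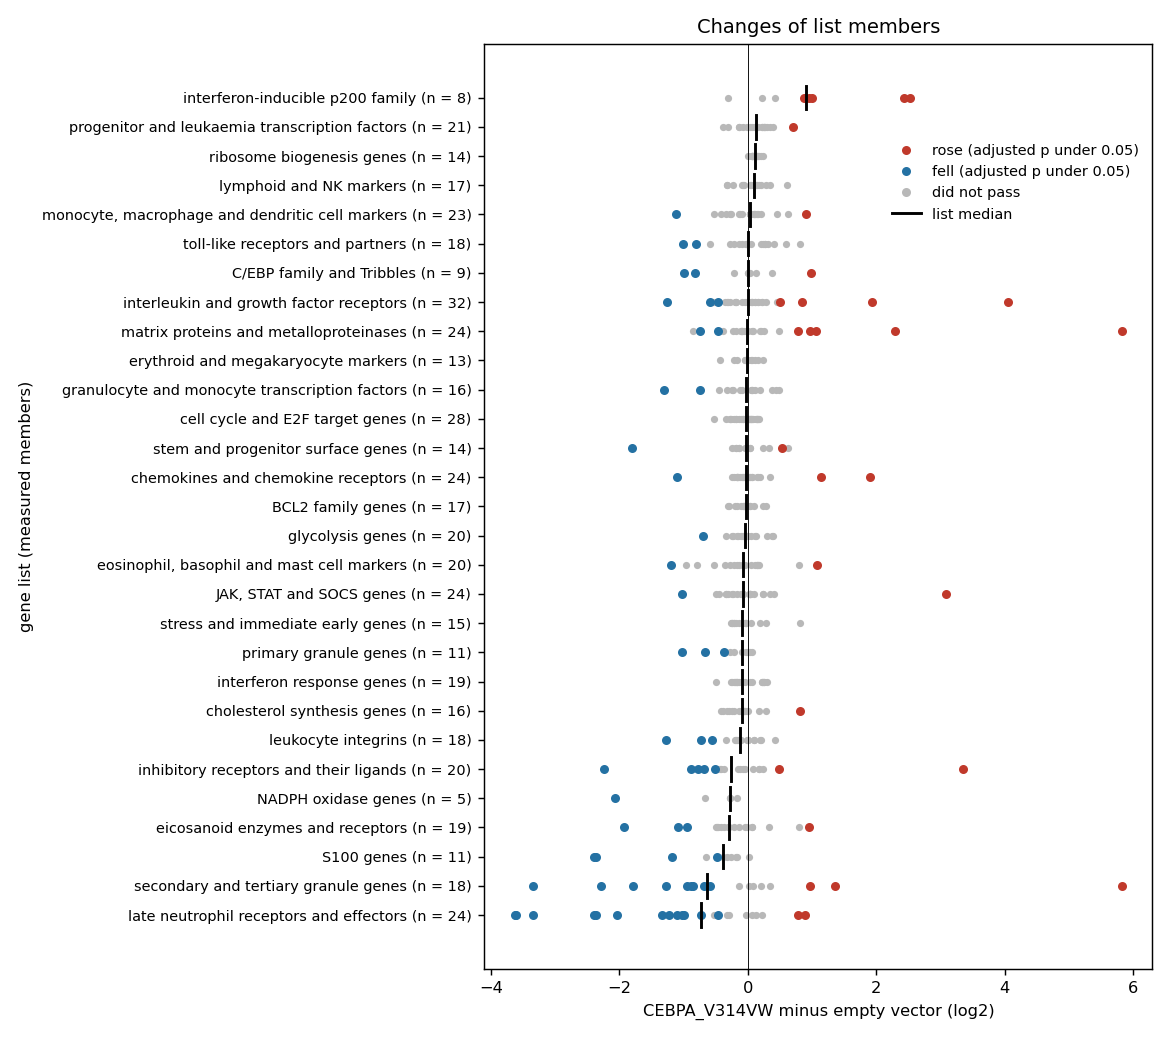
Log2 change (CEBPA_V314VW minus empty vector, horizontal) of every measured member of the 29 gene lists (vertical, with the number measured). Red members rose, blue members fell and grey members did not pass (adjusted p below 0.05), and black bars are list medians. The lists with the lowest medians are late neutrophil genes (-0.73) and secondary and tertiary granule genes (-0.63), and the p200 family has the highest (0.91).

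The interferon-inducible p200 genes, a cluster on chromosome 1 whose proteins sense DNA or regulate transcription, were read next. Of 8 measured, 5 rose and 3 did not pass, with a median of 0.91, and 3 rose when empty vector replicate A or CEBPA_V314VW replicate A was left out. Ifi211 read 4.23, 3.77 and 4.41 with empty vector and 6.60, 6.55 and 6.83 with CEBPA_V314VW (2.53 ± 0.15, adjusted p = 1.27e-06). Ifi209 read 4.66, 4.38 and 4.43 and then 7.08, 7.13 and 6.54 (2.43 ± 0.23, adjusted p = 5.14e-05). Both started at background. Ifi204 rose from 7.07, 6.94 and 7.27 to 8.24, 8.02 and 7.89 (0.96 ± 0.12, adjusted p = 0.000742). Ifi213 (1.00, adjusted p = 0.0115) and Mndal (0.87, adjusted p = 0.0108) did not pass when either of those A arrays was left out, nor did Ifi213 without empty vector replicate C. The members are alike in sequence and a probe set may read more than 1. None of 19 other interferon response genes rose or fell by limma, with 2 positive and 1 negative at an unadjusted p below 0.05, and Isg15, Irf7 and Rsad2 were among 7 at background in both groups. Without empty vector replicate C, 1 of the 19 fell.

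Receptor genes moved in both directions. Of 32 interleukin and growth factor receptor genes, 4 rose, 3 fell and 25 did not pass, with a median of 0. When any 1 of the 6 arrays was left out, 3 rose and 1 or 2 fell. The count of falls was 1 without empty vector replicate A or CEBPA_V314VW replicate B. The rise lost each time was that of Il17ra, an interleukin-17 receptor chain (0.51, adjusted p = 0.0408). Besides Il17rb and Il6st, Il6ra, the ligand-binding chain for interleukin-6, rose from 7.68, 7.64 and 7.99 to 8.61, 8.63 and 8.60 (0.84 ± 0.13, adjusted p = 0.00333). Csf2ra, a receptor chain for granulocyte-macrophage colony-stimulating factor, fell from 10.93, 10.55 and 10.50 to 9.53, 9.35 and 9.30 (-1.26 ± 0.12, adjusted p = 7.95e-05), while its partner Csf2rb stood at 10.49 and 10.55. Of 24 JAK, STAT and SOCS genes, Socs2 rose, Bcl3, a cofactor of NF-κB, fell by 1.02 (adjusted p = 0.00314), and 22 did not pass. Stat3 stood at 10.73 and 10.50 and Socs3 at 7.55 and 7.46. Of 20 inhibitory receptors and ligands, 2 rose and 5 fell. Havcr2, Lilrb4a, Ceacam1 and Vsir, the VISTA gene (-0.68, adjusted p = 0.0056) held without any 1 array, and the count of falls was 3 without any 1 empty-vector array or CEBPA_V314VW replicate C. The count of rises was 1 in these 4 cases and without CEBPA_V314VW replicate A.

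Genes of adhesion, migration and pathogen sensing changed in both directions. Of 24 chemokine and chemokine receptor genes 2 rose and 1 fell. Ccr1, a receptor for several CC chemokines, rose from 8.50, 8.25 and 8.50 to 9.76, 9.29 and 9.63 (1.14 ± 0.16, adjusted p = 0.00156), in the opposite direction to Cxcr2. Of 24 matrix proteins and metalloproteinases 5 rose and 2 fell, with a median of -0.01. Among the rises, that of the metalloproteinase gene Mmp12 (1.07, adjusted p = 0.0397) started at background, at 5.22. It did not pass without any 1 empty-vector array or CEBPA_V314VW replicate A or B. After Mmp8 and Fn1, Adam8 and Tgfbi, a matrix protein induced by TGF-β, rose by 0.97 and 0.78, and Thbs1, thrombospondin, fell by 0.74 (adjusted p = 0.00469). The second fall, in the metalloproteinase gene Mmp19 (-0.47, adjusted p = 0.0269, named after its values were seen), did not pass without any 1 empty-vector array or CEBPA_V314VW replicate B or C. Of 18 toll-like receptor genes and partners, Tlr4, the sensor of bacterial lipopolysaccharide, fell by 1.01 (adjusted p = 0.00586) and Tlr2, a sensor of lipoproteins, by 0.80 (adjusted p = 0.00487). Of 18 leukocyte integrin genes 3 fell, with Itgb2l and Itgb3 (-0.56, adjusted p = 0.00746) passing without any 1 array and Itgam, the CD11b gene (-0.73, adjusted p = 0.0108), not passing without empty vector replicate B or CEBPA_V314VW replicate C. Of 19 eicosanoid genes 3 fell and 1 rose. Ltb4r1, the prostaglandin receptor Ptger3 (-1.08) and the thromboxane synthase Tbxas1 (-0.95) were lower, and Ptger4, another prostaglandin receptor, was higher, with 7.17, 7.11 and 7.23 against 8.12, 8.12 and 8.12.

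Progenitor genes and growth genes differed little. Of 14 stem and progenitor surface genes, Prom1 fell from 6.90, 6.20 and 6.40 to background at 4.31, 5.04 and 4.71 (-1.81 ± 0.22, adjusted p = 0.000577), 1 rose and 12 did not pass. Kit stood at 11.54 and 11.35 and Cd34 at 11.46 and 11.49. The 1 that rose, Cd48 (0.54, adjusted p = 0.0204), did not pass when empty vector replicate A, empty vector replicate C, CEBPA_V314VW replicate A or CEBPA_V314VW replicate B was left out. Of 21 progenitor and leukaemia transcription factor genes, 15 changes were positive (median 0.13) but only Sox4 passed (0.71, adjusted p = 0.0147), and it did not when replicate A or C of either group was left out. None of 28 cell cycle genes, 17 BCL2 family genes or 14 ribosome biogenesis genes rose or fell by limma. At an unadjusted p below 0.05, 4 of the cell cycle genes were lower and 0 higher, 1 of the BCL2 family was lower and 1 of the ribosome biogenesis genes higher, all 14 of the last having positive changes of 0.01 to 0.24. Mki67, a proliferation marker, stood at 11.93 and 11.96. Single genes passed in the lists of cholesterol synthesis (Hmgcs1, higher by 0.82) and glycolysis (Slc16a3, a lactate transporter, lower by 0.70). Of 15 stress and immediate early genes none passed, with 2 higher and 1 lower at an unadjusted p below 0.05, and 1 rose without CEBPA_V314VW replicate B.

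Markers of other cell types were read for the same arrays. Among 20 markers of eosinophils, basophils and mast cells, 1 was higher and 1 lower, with list means of 7.41 to 7.43 on empty-vector and 7.17 to 7.38 on CEBPA_V314VW arrays. Mcpt8, a basophil protease, fell from 11.56, 11.55 and 11.49 to 10.52, 9.98 and 10.50 (adjusted p = 0.00893). Prss34, another basophil protease, had the opposite change (1.08, adjusted p = 0.0149), which did not pass when replicate A or C of either group was left out. Ear6, Il5ra, Ccr3, Tpsab1 and Mcpt4 were at background in both groups. Of 23 monocyte, macrophage and dendritic cell markers, F13a1, a coagulation factor chain of monocytes, rose by 0.91 (adjusted p = 0.000383) and Ly6c2, a surface marker of monocytes, fell by 1.11 (adjusted p = 0.00715). Their list means were 6.40 to 6.45 and 6.37 to 6.47. The 7 at background in both groups were C1qa, Mertk, Mrc1, Itgax, Xcr1, Clec9a and Lyz2 (4.20 and 4.23). Whether these probe sets report their genes was not tested, so their levels do not show that such cells were absent. Of 13 erythroid and megakaryocyte markers (7.53 to 7.58 and 7.51 to 7.56) and 17 lymphoid and NK markers (5.67 to 5.68 and 5.66 to 5.85) none passed by limma. At an unadjusted p below 0.05 the counts were 0 of the first and 1 higher and 2 lower of the second, and Cd3g, Prf1 and Ncr1 were among 5 lymphoid markers at background in both groups.

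Some called genes lie side by side on the genome. Of the 122 called genes with a symbol, 19 had a called gene of the same direction as the next gene with a probe set, 6 higher and 13 lower, in 7 runs. The longest was the stefin group on chromosome 16, with runs of 5 and 4 genes that fell by 1.34 to 3.63 on the log2 scale. Copies of near-identical sequence share such runs, and how far their probe sets read each other was not tested. S100a8 and S100a9 on chromosome 3, and Lilrb4a and Lilr4b on chromosome 10, were the other lower pairs. The higher pairs were Il6st with Il31ra on chromosome 13, Il17rb with Chdh on chromosome 14 and P2ry10 with P2ry10b on chromosome X. Chdh, the choline dehydrogenase gene, was named after its values were seen and was higher by 1.51.

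The 2-fold line ran through a crowded range. Just inside it on the higher side were Tpm4 (1.00), P2ry10b (1.02) and Hrh2 (1.02), and just outside it Ifi213 (1.00), Cebpa (0.98) and Parp16 (0.98). On the lower side Cebpe (-1.0), Tlr4 (-1.01) and Pilra (-1.02) lay just inside and Padi4 (-1.0), Ebi3 (-1.0) and Xlr4c (-0.99) just outside. Cebpe and Ebi3 were both 2.00-fold lower to 3 digits, although they fell on different sides of the line. Some of these adjusted p-values rested on single arrays. Parp16 did not pass without replicate C of either group, and Pilra not without empty vector replicate C or CEBPA_V314VW replicate A. Padi4 and Xlr4c each failed without replicate A or C of the empty-vector group and without 2 of the CEBPA_V314VW replicates (B or C for Padi4, A or B for Xlr4c), and Ifi213 not without replicate A of either group or empty vector replicate C. The highest adjusted p among these was 0.126, for Padi4.

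The CEBPA_V314VW effect was then measured a second time on 6 other arrays, as cells with both mutants minus cells with CSF3R_T618I alone. The group means shared no array with the first comparison, but the spread behind both sets of p-values was estimated from all arrays of the series. At an adjusted p below 0.05, 1.6% of all probe sets changed in this second comparison. Of the 67 probe sets called higher, 36 were also higher there by the same test (0.745% of all probe sets were), 31 did not pass and 0 were lower (1 at an unadjusted p below 0.05). Of the 67 called lower, 40 were also lower (0.854% of all were), 27 did not pass and 0 were higher (1 at an unadjusted p below 0.05). Probe sets called partly for a small shared spread were favoured in advance to pass again. These counts are thus not an independent repeat, and nothing is read from them against the shares of all probe sets. The direction of change, which does not use that spread, was the same for 61 of the higher and 64 of the lower probe sets. How many of all probe sets had the same direction in both comparisons was not counted, so these 2 counts are description only. The median change was 0.76 for the probe sets called higher and -0.87 for those called lower, against -0.02 for all, and thus nearer to 0 than without CSF3R_T618I, where these probe sets had been chosen for their change.

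Several genes changed by about as much with as without CSF3R_T618I. Itsn1 went from a mean of 5.99 to 9.0 (3.02, adjusted p = 2.48e-06) and Il6st from 7.93 to 9.47 (1.54, adjusted p = 3.04e-06). Fabp5 rose by 1.52 (adjusted p = 8.38e-05). On the lower side Retnlg fell by 2.29 (adjusted p = 2.59e-05), Csta3 by 2.18 (adjusted p = 1.65e-05), Cybb by 1.66 (adjusted p = 0.000272) and Ltf by 1.72 (adjusted p = 0.000758). The difference between the effects did not pass in these 7 genes, which does not show that they were alike. Il17rb rose from 4.99 to 7.70 (2.71, adjusted p = 1.65e-05), and its difference of -1.34 did not pass (adjusted p = 0.0905), though it did without replicate C of the cells with both mutants (adjusted p = 0.0189).

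The difference between the effects, tested as an interaction, passed for 36 of the 134 called probe sets, against 0.325% of all probe sets. Of these 25 had been called higher and 11 lower. The interaction contains the change by which they were called, so nothing is read from this share. The count was 21 to 23 without empty vector replicate B, CEBPA_V314VW replicate A or C, CSF3R_T618I replicate B or replicate B of both mutants, and 20 without replicate A of both mutants. Mmp8 had the largest difference. It was already high with CSF3R_T618I alone, at 11.39, and stood at 12.72 with both mutants, a rise of 1.33 (adjusted p = 9.13e-05) against 5.83 without CSF3R_T618I (interaction -4.50 ± 0.18, adjusted p = 8.11e-08). Both levels lie above the 95th percentile, as does the 12.18 with CEBPA_V314VW alone, and whether rises to such levels are understated was not tested. Fn1 stood at 6.12 and 5.73 in the same cells and did not pass there (-0.39, adjusted p = 0.372), and its interaction of -2.69 passed (adjusted p = 0.000183). Havcr2 and Socs2 rose in both settings, by 1.26 and 1.18 with CSF3R_T618I, and their interactions were -2.10 (adjusted p = 0.00721) and -1.90 (adjusted p = 0.00178).

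Akr1c18 and Chil3 went the other way. Akr1c18 was at 4.90 with CSF3R_T618I, at background, and at 10.29 with both mutants, a rise of 5.40 (adjusted p = 7.77e-08) against 2.19 without CSF3R_T618I, with an interaction of 3.21 (adjusted p = 0.000493). Both starting levels were background, so the true sizes of both rises are not known. Chil3 went from 8.07 to 11.33, a rise of 3.26 (adjusted p = 1.4e-05) against 1.36, with an interaction of 1.90 (adjusted p = 0.0267). The Chil3 interaction passed only where the array left out was CEBPA_V314VW replicate B, CSF3R_T618I replicate A or replicate C of both mutants (adjusted p up to 0.0882 over the 12). These were the 2 called-higher probe sets of the 25 with a positive interaction.

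All 11 called-lower probe sets with a passing interaction had a positive one, that is, a smaller fall or none with CSF3R_T618I. Ly6c2 (0.56, adjusted p = 0.268) and Cd24a (0.20, adjusted p = 0.785) had positive changes there that did not pass. Stfa1 fell from 11.84 to 10.67 (-1.17, adjusted p = 0.000337) against -3.35 without CSF3R_T618I (interaction 2.18, adjusted p = 0.000183). S100a8 stood at 12.21 and 11.72 and did not pass there (adjusted p = 0.32), with an interaction of 1.91 (adjusted p = 0.0053). Stfa2l1 stood at 12.26 and 11.56 (adjusted p = 0.248), with an interaction of 2.94 (adjusted p = 0.00178). Stfa1, S100a8 and Stfa2l1 were above the 95th percentile of 10.79 with CSF3R_T618I alone. Ly6c2 (10.16), Ptafr (9.30), Id2 (9.24) and Cd24a (6.65), also among the 11, were below it. Ptafr and Cd24a were named after their values were seen. S100a9 stood at 12.60 and 12.34 (adjusted p = 0.856), and its interaction of 2.09 did not pass (adjusted p = 0.0749) but did without CEBPA_V314VW replicate B (adjusted p = 0.00285). Ngp, which fell by 1.99 (adjusted p = 0.000758) with CSF3R_T618I, had an interaction of 1.35 that did not pass (adjusted p = 0.246) but did without the same array (adjusted p = 0.00438).

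**Figure D4:**
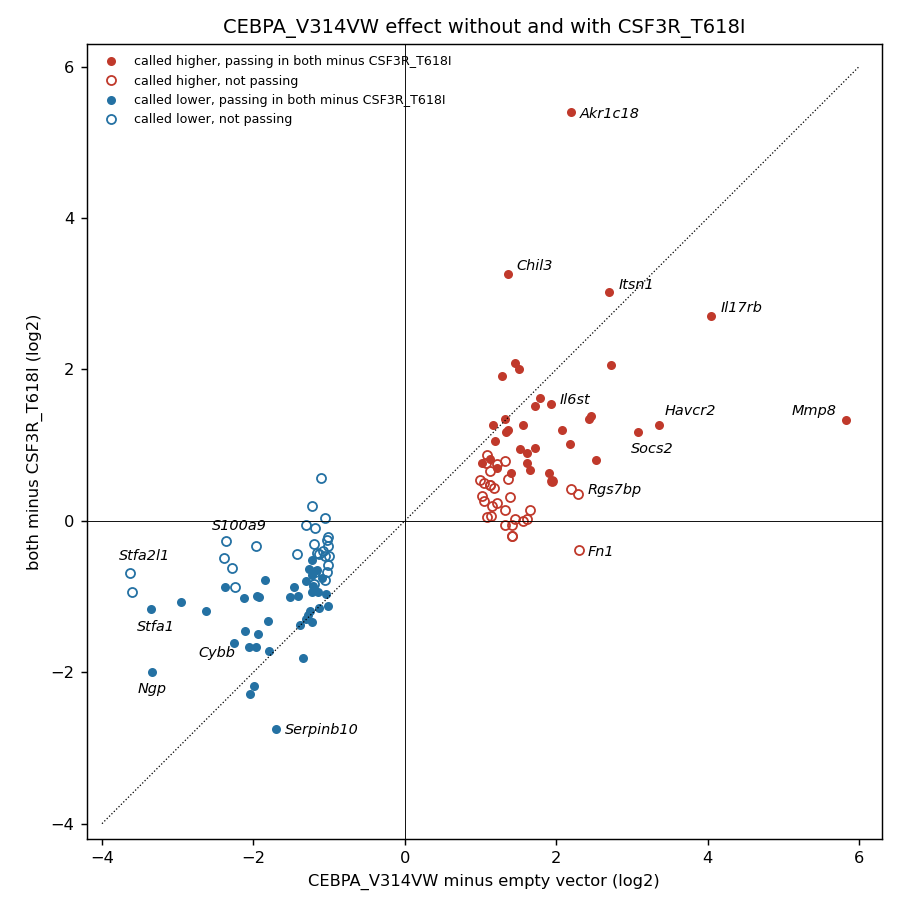
The 134 called probe sets by their log2 change with CEBPA_V314VW alone (horizontal, CEBPA_V314VW minus empty vector) and with CSF3R_T618I present (vertical, both minus CSF3R_T618I). Red points were called higher and blue lower; filled points also passed in the second comparison and open points did not, and the dotted line marks equal changes. Most points lie in the same quadrant but nearer to 0 on the vertical axis; Mmp8 (5.83 and 1.33) and Akr1c18 (2.19 and 5.40) lie farthest from the line.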

How the data were processed

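RNA was measured on GeneChip Clariom S Mouse arrays from 100 ng of total RNA per sample, labelled with the WT Plus kit, and the study's methods state that sample order was randomised. The authors deposited 1 log2 value per probe set and array, computed by RMA in Affymetrix Expression Console. RMA subtracts background, normalises across arrays and summarises probes, so a change shared by most genes would not be seen and dim genes are compressed towards the background. RMA settings and the annotation build are not given in the sources used here. No further scaling was added. Of 28846 probe sets, 6640 controls were left out (5222 intron, 1324 exon, 63 ERCC spikes, 23 background and 8 other spikes). The 22206 gene probe sets, of which 64 were not placed on a chromosome and are no members, were tested.

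A linear model with 1 mean for each of the 4 groups was fitted to all 12 arrays with limma 3.58.1 in R 4.3.3, with variances moderated across probe sets (4.51 prior degrees of freedom, and a median residual SD of 0.19) and Benjamini-Hochberg adjustment over all gene probe sets. Platform annotation and RefSeq gave 19527 member probe sets 1 symbol and 2615 none. For symbols with more than 1 probe set (33), lists used the one with the highest mean. Of 539 genes in 29 lists, 488 were measured. The comparison and the lists were chosen with earlier results of these data known. Named genes were Cebpa, Csf3r, Hoxb8 and genes the study discusses; the 20 largest rises and falls, leaving out unnamed probe sets and predicted gene models; up to 6 passing members of each list; and the 3 on either side of the 2-fold line. Promoters came from RefSeq. On simulated data with changes set in advance the code was tested for their recovery. Alternatives were the replicate letter as a block, the 2 groups alone, quantile normalisation, median centring, a filter on dim probe sets, array weights, no moderation, a trended and robust prior, the intron control level as a covariate, and leaving out arrays. For the second comparison and the interaction, some of these, and leaving out each of the 12 arrays, were added after seeing the data.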

Additional observations from a re-analysis of the deposited data

Results flagged for a closer look

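The CEBPA_V314VW effect with CSF3R_T618I differed from the effect without it, by the test of the difference itself, for 19 of the 40 genes with the largest changes, against 0.325% of all probe sets. These 40 were chosen for the change that the difference subtracts, so nothing is read from this share. Values below are the difference of the log2 changes. Among genes that rose, it was negative for Mmp8 (-4.50, adjusted p = 8.11e-08), Fn1 (-2.69, adjusted p = 0.000183), Havcr2 (-2.10, adjusted p = 0.00721), Rgs7bp (-1.94, adjusted p = 0.00133) and Socs2 (-1.90, adjusted p = 0.00178). It was also negative for Ifi211 (-1.73, adjusted p = 0.00328), Mgst1 (-1.41, adjusted p = 0.000893), Cmah (-1.40, adjusted p = 0.00476) and Ccl6 (-1.26, adjusted p = 0.00721). Akr1c18 alone of these 20 rises had a positive passing difference, 3.21 (adjusted p = 0.000493). These 10 differences passed whichever of the 12 arrays was left out.

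Il31ra (-1.78, adjusted p = 0.0319) and Vit (-1.17, adjusted p = 0.0419) passed less firmly. Il31ra passed only where the array left out was CEBPA_V314VW replicate B, CSF3R_T618I replicate A or replicate C of both mutants (adjusted p from 0.00283 to 0.104 over the 12). Vit passed only without empty vector replicate C or CSF3R_T618I replicate A (adjusted p from 0.0321 to 0.131).

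Among genes that fell, the difference was positive for Stfa2l1 (2.94, adjusted p = 0.00178), Stfa2 (2.67, adjusted p = 0.00721), Stfa1 (2.18, adjusted p = 0.000183), S100a8 (1.91, adjusted p = 0.0053), Cstdc5 (1.89, adjusted p = 0.000183), Cstdc4 (1.5, adjusted p = 0.00197) and Cstdc6 (1.43, adjusted p = 0.00646). All 7 passed whichever of the 12 arrays was left out, and 6 of them are stefin genes whose probe sets may read each other. Their levels with CSF3R_T618I lay between 11.71 and 12.72, above the 95th percentile of 10.79.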

How the results depend on the processing

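The count of called probe sets lay between 122 and 149 in the alternatives (134 as reported), between 123 and 142 when 1 array was left out, and the share of higher ones between 46.3% and 54.9%. No gene of the 96 named ones that passed reversed. The letters A, B and C were not treated as pairs, because the labels do not say whether same-lettered arrays belong together. Deviations of same-lettered arrays correlated at 0.053, 0.169 and 0.056 and 4 of 6 arrays correlated best with their own letter, which is a hint from the data and not the design. With the replicate letter as a block 132 were called (65 higher and 67 lower), and Csf3r, Ms4a3, Il17ra, Siglece and Mmp12 lost their adjusted p. Fitted to the 2 groups alone, 134 were called (68 higher and 66 lower), and 10 of the 96 named genes lost theirs. The interaction count (36 as reported) was 56 with array weights and 16 without moderation of variances, and ran from 20 to 32 when 1 of the 12 arrays was left out. The share of called-lower genes with a C/EBP match was 14% (called higher 18%, all genes 5.05%) in the 150 bases nearest the start. Of the NADPH oxidase genes 2 or 3 fell in 7 alternatives, and Hoxb8 passed with a trended and robust prior (adjusted p = 0.0315). The causes were not tested. Changes at background level have no known true size, and whether those above the 95th percentile are compressed was not tested.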
